A study of Mus musculus with 47 samples.

Results

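Eµ-Myc mouse lymphomas that had been treated with Adriamycin were compared between 2 genotypes, Suv39h1 WT and Suv39h1-, which the labels call senescent and non-senescent respectively after this treatment. The members are all arrays whose labels give 5 days of Adriamycin (ADR) and one of these genotypes, which left 14 WT and 5 Suv39h1- arrays, 19 of the 47 in the series. Each array is a different lymphoma number, so the comparison is unpaired, and WT minus Suv39h1- is the direction of every difference below. Both groups carry a Myc transgene driven in the B cell lineage by the immunoglobulin heavy chain enhancer. Both were also transduced with a Bcl2 retrovirus, selected with puromycin for 48 h, grown on NIH 3T3 fibroblast feeders irradiated with 20 Gy, and treated in culture with 0.05 µg/ml ADR for 5 days. The same lymphomas were also measured untreated ("native"), and 3 further Suv39h1- cultures carried Suv39h1ER, a form of the enzyme that 4-hydroxytamoxifen (4OHT) activates. Bcl2 is known to block apoptosis, and it was introduced in both groups. In bulk RNA, fewer cells of a type and less RNA per cell cannot be told apart.

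Suv39h1 is a histone methyltransferase that places trimethylation on lysine 9 of histone H3, a mark of heterochromatin. In oncogene-driven lymphomas, DNA damage can drive cells into senescence, a lasting exit from the cell cycle in which this mark is known to cover the promoters of E2F target genes. Senescent cells are also known for high p53 and NF-kB activity, secretion of cytokines, enlarged lysosomes and loss of lamin B1.

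The values are log2 expression levels per gene on Affymetrix arrays, for 18194 genes, so a difference of 1 is a doubling. The probe sets of Suv39h1 itself were not analysed here, and the genotype was therefore not checked by the level of the targeted gene. The number of arrays limits the precision, and replicates are separate lymphomas by their numbers. B cell identity genes were expressed in both groups, with list means of 7.77 to 10.13 in WT and 7.92 to 9.38 in Suv39h1-. Under ADR the array median was lower in all 5 Suv39h1- arrays than in any of the 14 WT arrays (exact permutation adjusted p = 0.000172). In native cells the array medians of the genotypes overlapped. Suv39h1- 1032 stood apart, with the lowest array median under ADR (4.07, against 4.32 to 4.36 in the other Suv39h1- arrays and 4.36 to 4.42 in WT). The signal of the control probe sets for 18S ribosomal RNA did not overlap between the genotypes. It was 6.48 to 8.31 (median 7.23) in WT and 8.33, 8.71, 10.10, 9.01 and 8.85 in Suv39h1- 5783, 7890, 9250, 1032 and 4936 (exact permutation test over 11628 assignments, two-sided, adjusted p = 0.000172 over 4 control measures). The same separation stood in native cells (6.67 to 7.60 against 8.25 to 9.92), and the Suv39h1ER cultures under ADR lay at 8.28 to 9.63. The 3′ minus 5′ difference of the Actb control, a sign of RNA integrity, was 0.56 ± 0.20 (SD, n = 14) in WT and 0.87 ± 0.20 (SD, n = 5) in Suv39h1- (exact permutation adjusted p = 0.0132). The same measure of Gapdh was 0.18 ± 0.23 (SD, n = 14) and 0.33 ± 0.08 (SD, n = 5), which did not pass (exact permutation adjusted p = 0.189). Fits with the 18S signal or the Actb difference as a covariate are given below, and the part of the other control measures was not tested. Neither the 18S signal nor, under ADR, the array median can be told apart from the genotype.

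**Figure D1:**
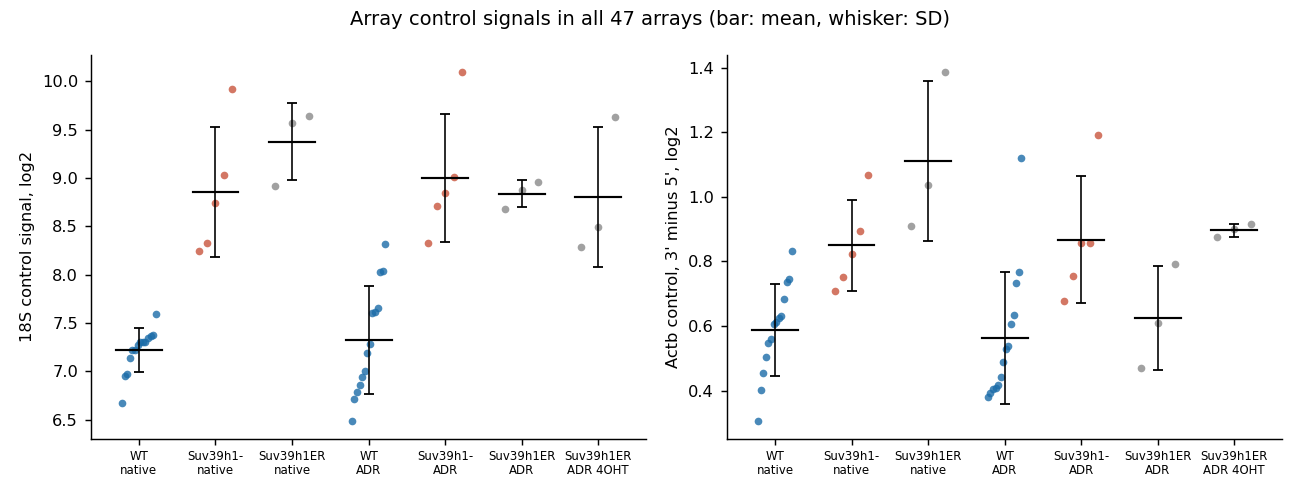
Log2 signal of the 18S control (left) and 3′ minus 5′ difference of the Actb control (right) on each of the 47 arrays by group, with mean and SD. Every Suv39h1- array under ADR lies above every WT array under ADR for 18S (lowest 8.33 against highest 8.31), while 3 of the 14 WT arrays reach the Suv39h1- range for Actb.

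Under ADR the genotypes differed in many genes. Most replication, mitosis and DNA repair genes measured, and part of the cholesterol synthesis and mitochondrial respiration genes, were lower in WT lymphomas. Higher in WT were part of the NF-kB, autophagy, lysosome and p53 target genes. Of the 18194 genes tested, 2293 passed an adjusted p of 0.05 (12.6%), 1146 higher and 1147 lower in WT (6.3% each), by limma with Benjamini-Hochberg adjustment. A difference of at least 1 was reached by 209 of the higher and 184 of the lower genes (2.16% of all genes together). With quantile normalization the split was 818 higher and 1281 lower, of 2099. All 14 WT arrays lay on one side of all 5 Suv39h1- arrays for 295 genes (1.62%), 192 higher (1.06%) and 103 lower (0.566%) in WT, and 290 of these passed the test. Leaving out Suv39h1- 9250, 4936 or 7890 lowered the count to 1227, 1365 or 1369, and leaving out Suv39h1- 1032 raised it to 3389. With the 18S signal as a covariate 39 genes passed, 36 of them among the 2293, and with the Actb difference 562.

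Promoter sequences are shown here for 5 genes from the lists that moved, because these lists are textbook targets of known promoter elements. The 5 were picked by hand, and differences under ADR are not given here for Plk1, Mcm6 and Hmgcs1. The mitosis genes Bub1b and Plk1 hold the cell cycle element CHR (TTTGAA) and a CCAAT box. The replication gene Mcm6 holds E2F-type letters and CCAAT boxes. The cholesterol gene Hmgcs1 holds a sterol response element (SRE) with CCAAT boxes, and the lysosome gene Ctsd the palindrome known as CLEAR. Each window runs from 250 bases before to 50 bases after the start of the gene in RefSeq (GRCm38.p6), printed 5′ to 3′ along the gene, with the motif letters in capitals on either strand.
Bub1b, chr2:118597961-118598260, plus strand: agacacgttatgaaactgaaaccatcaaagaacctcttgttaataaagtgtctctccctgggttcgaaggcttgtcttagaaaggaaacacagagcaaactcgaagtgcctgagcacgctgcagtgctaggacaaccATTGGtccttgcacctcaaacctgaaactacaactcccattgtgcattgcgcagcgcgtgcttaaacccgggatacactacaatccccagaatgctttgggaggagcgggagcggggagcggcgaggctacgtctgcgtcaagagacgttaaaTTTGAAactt
Plk1, chr7:122159185-122159484, plus strand: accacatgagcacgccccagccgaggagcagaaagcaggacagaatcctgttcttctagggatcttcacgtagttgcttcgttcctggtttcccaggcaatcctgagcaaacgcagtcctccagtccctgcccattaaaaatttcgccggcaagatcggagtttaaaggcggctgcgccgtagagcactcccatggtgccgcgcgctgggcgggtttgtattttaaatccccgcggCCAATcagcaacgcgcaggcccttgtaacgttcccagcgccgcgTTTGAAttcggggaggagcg
Mcm6, chr1:128359656-128359955, minus strand: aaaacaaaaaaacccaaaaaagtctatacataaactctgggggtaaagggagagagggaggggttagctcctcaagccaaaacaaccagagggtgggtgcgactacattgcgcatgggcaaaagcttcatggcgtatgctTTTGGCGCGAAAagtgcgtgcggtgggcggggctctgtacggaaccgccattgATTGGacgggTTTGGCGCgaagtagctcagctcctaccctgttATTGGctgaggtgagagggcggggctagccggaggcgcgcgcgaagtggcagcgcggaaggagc
Hmgcs1, chr13:119690101-119690400, plus strand: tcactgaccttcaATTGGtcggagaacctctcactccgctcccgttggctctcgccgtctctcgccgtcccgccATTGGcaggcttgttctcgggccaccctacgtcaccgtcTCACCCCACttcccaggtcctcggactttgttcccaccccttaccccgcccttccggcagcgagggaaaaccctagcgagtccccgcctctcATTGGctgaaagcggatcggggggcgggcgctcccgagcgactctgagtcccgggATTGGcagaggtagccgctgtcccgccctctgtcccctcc
Ctsd, chr7:142387778-142388077, minus strand: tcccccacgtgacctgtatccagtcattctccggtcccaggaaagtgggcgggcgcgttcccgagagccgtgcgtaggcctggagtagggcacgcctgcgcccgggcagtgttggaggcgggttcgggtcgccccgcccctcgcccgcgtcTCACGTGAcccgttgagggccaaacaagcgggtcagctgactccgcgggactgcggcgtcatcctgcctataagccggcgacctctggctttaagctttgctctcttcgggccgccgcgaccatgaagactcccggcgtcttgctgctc
In the Mcm6 window, the first run of capitals is a TTTGGCGC and a TTTCGCGC match, read on opposite strands, that overlap.

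Windows were found for 14453 of the 18194 genes, and 10 motifs were searched on both strands. CHR (TTTGAA) stood in 28 of 40 mitosis windows (70.0%), against 13.4% of all windows, 19% of the 958 genes lower in WT and 8.39% of the 918 genes higher in WT. CCAAT stood in 77.5% of mitosis, 60.6% of replication, 89.5% of cholesterol synthesis and 73.1% of stress list windows, the last of which had calls in both directions, against 38.2% of all. The E2F forms TTTCGCGC and TTTGGCGC stood in 6 and 7 of 33 replication windows (18.2% and 21.2%), against 0.484% and 0.851% of all. TCACGTGA (CLEAR) stood in 4 of 33 lysosome windows (12.1%) and 1.44% of all, and TCACCCCAC (SRE) in 1 of 19 cholesterol windows and 0.554% of all. The core of the interferon response element stood in 17 of 28 interferon-stimulated gene windows (60.7%) and 3.02% of all, and in 3.05% of the genes higher and 2.09% of those lower in WT. The kB motif stood in 0.18% of all windows and in none of 14 NF-kB windows, TGANTCA (AP-1) in 6.33% of all and 3 of those 14, and TGATGCAA (ATF4) in 0.685% of all and 4 of 26 windows of the stress list. These are matches of letters, not measured binding sites.

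Replication genes were lower in WT. Of 40 measured members, 25 passed the test as lower and none as higher (background 6.3% lower), all 40 had a difference below 0, and the median difference was -0.84 against 0.04 over all genes. Averaged over the list, WT arrays lay at 7.04 (2949) to 8.61 (9584), median 7.75. The Suv39h1- arrays lay at 8.25 (5783), 8.72 (7890), 8.80 (9250), 8.23 (1032) and 8.99 (4936), and 13 of the 14 WT arrays were below all of them. WT 9584 was the exception.

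Pola1, the catalytic subunit of the polymerase that primes replication, ran from 4.78 to 7.45 in WT (median 6.33) and was at 7.71, 8.27, 8.68, 7.83 and 8.28 in Suv39h1- 5783, 7890, 9250, 1032 and 4936, the order used for all genes below. The groups did not overlap, and the difference was -1.78 ± 0.34 (SE; 3.45-fold, adjusted p = 0.00323). The other probe set of Pola1 gave -0.12. Gins1, a subunit of the replicative helicase, ran from 4.88 to 7.20 in WT (median 6.37) against 7.39, 8.11, 8.09, 7.28 and 8.32. Again no WT array reached a Suv39h1- array (-1.52 ± 0.31, adjusted p = 0.00485). Rfc5, a subunit of the clamp loader, differed by -0.83 ± 0.18 without overlap. Dut, which removes dUTP from the nucleotide pool, was at 7.29 to 9.04 in WT (median 8.30) against 9.48, 9.99, 10.40, 9.64 and 10.16 (-1.57 ± 0.25, adjusted p = 0.000698). All WT values of Dut lay below the Suv39h1- values. Prps1, which makes the ribose precursor of nucleotides, differed by -1.11 ± 0.17 and Cdca7, a partner of the remodeller Hells, by -1.49 ± 0.27, both without overlap. For Cdca7 the other probe set gave 0.05.

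Mitosis genes showed the largest median of the lists with lower levels. Of 47 members 32 were lower (background 6.3% lower), none was higher, and the median difference was -1.24. The list mean was 5.56 (2949) to 8.62 (9584) in WT, median 7.22, and 7.87, 8.56, 8.53, 8.13 and 9.02 in Suv39h1-. Here too 13 of 14 WT arrays lay below every Suv39h1- array. Bub1b, a kinase of the spindle checkpoint, was at 6.30 to 8.85 in WT (median 7.39) and 8.10, 9.19, 9.14, 8.81 and 9.19 in Suv39h1- (-1.42 ± 0.31, adjusted p = 0.00753). Of the WT arrays, 11 lay below the lowest Suv39h1- array. The motor Kif18a (-1.63 ± 0.35) and the centrosome kinase Nek2 (-1.69 ± 0.40) each had 13 WT arrays below, with 9584 inside the Suv39h1- range. Trip13, an ATPase of the spindle checkpoint, did not overlap (6.07 to 8.25, median 7.52, against 8.48, 9.54, 9.63, 8.76 and 9.92; -1.84 ± 0.34, adjusted p = 0.00211). Mki67, the common proliferation marker, ran from 6.83 to 10.52 in WT (median 8.60) and was at 9.03, 10.42, 10.68, 9.68 and 10.45 in Suv39h1-. It was lower in WT (-1.50 ± 0.41, adjusted p = 0.0231), with 4 WT arrays inside the Suv39h1- range.

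DNA repair genes followed, with 12 of 21 lower (background 6.3% lower), none higher and a median of -0.92. The checkpoint kinase Chek1 differed by -1.47 ± 0.31 (WT 4.74 to 7.09, median 6.10, against 7.02, 7.65, 8.06, 6.75 and 8.22), and 13 WT arrays lay below all Suv39h1- arrays. Ung, which removes uracil from DNA, differed by -1.43 ± 0.33 and the exonuclease Exo1 by -1.49 ± 0.36. The counts of these lists depend on single lymphomas. Without Suv39h1- 4936, 9 replication, 7 mitosis and 5 repair genes passed, without 9250, 11, 10 and 5, and without 7890, 14, 10 and 6, while their medians stayed between -0.75 and -1.25. With the 18S signal as a covariate none of these passed, at medians of -0.94, -1.96 and -0.90.

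**Figure D2:**
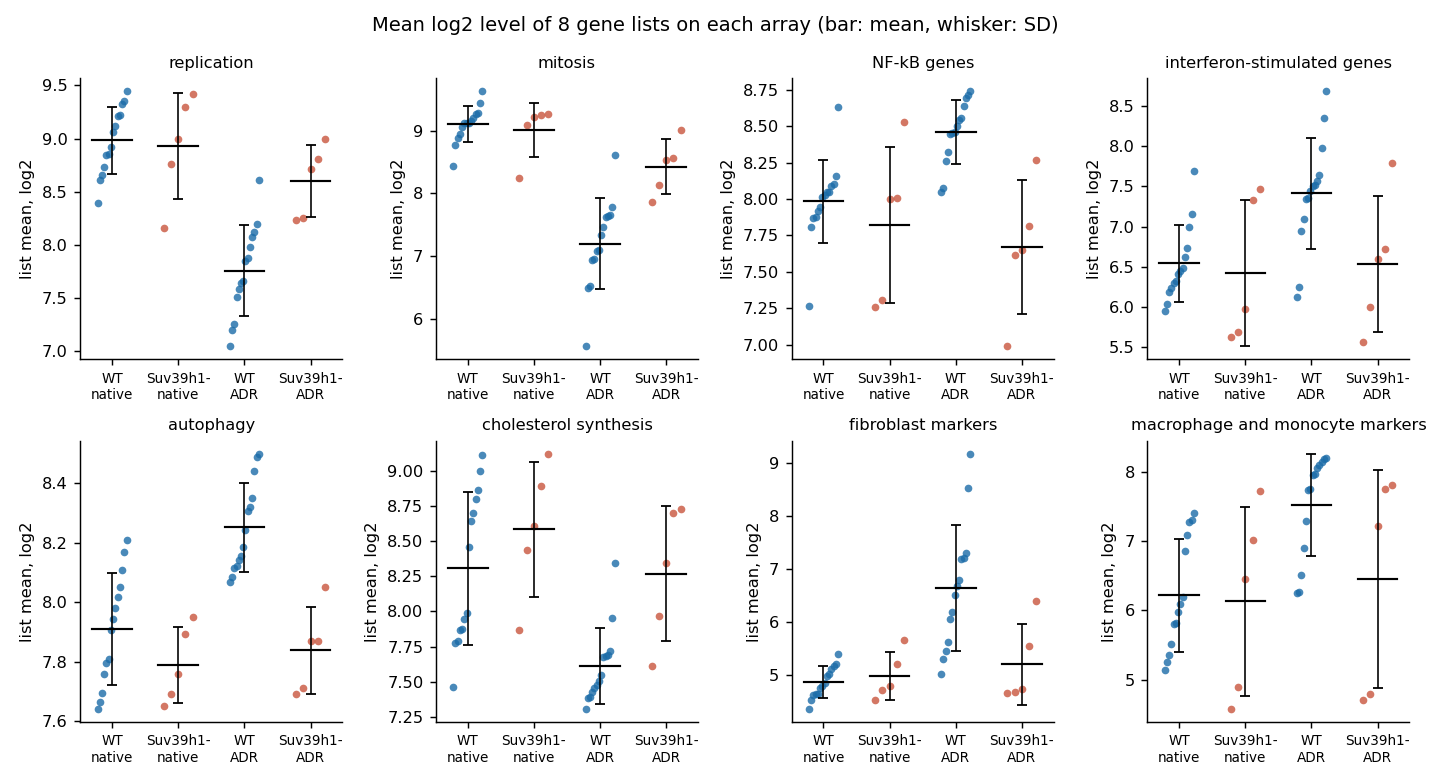
Mean log2 level of 8 gene lists (vertical axes) on each native and ADR array of WT and Suv39h1- lymphomas, with mean and SD of each group. Replication and mitosis levels overlap in native cells, and under ADR 13 of the 14 WT arrays lie below every Suv39h1- array, while autophagy lies above in all 14.

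Lmnb1 encodes lamin B1, the nuclear envelope protein whose loss marks senescence. It had the largest difference of the genes lower in WT without overlap. WT arrays ran from 6.22 (3769) to 8.01 (1467), median 7.17, and Suv39h1- arrays were at 9.01, 8.94, 9.42, 8.92 and 9.37. No WT array reached a Suv39h1- array (-1.99 ± 0.24, 3.97-fold, adjusted p = 7.11e-05). Both probe sets of Lmnb1 gave nearly the same value (-1.99 and -1.97), and in native cells the difference was -0.66 (adjusted p = 0.490). Hmgb2, a chromatin protein also lost in senescence, was at 8.71 to 11.16 in WT (median 9.50) and 10.41, 11.19, 11.16, 10.58 and 11.31 in Suv39h1- (-1.30 ± 0.29, adjusted p = 0.00883). WT 9584 alone reached the Suv39h1- range. The histone variant gene H2az1 differed by -0.85 ± 0.19.

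Among inhibitors of the cell cycle, Cdkn1a, which encodes p21, was at 11.05 to 12.19 in WT (median 11.59) and 11.50, 10.29, 10.34, 11.86 and 8.90 in Suv39h1-. It was higher in WT by 1.06 ± 0.32 (adjusted p = 0.0361), but 10 WT arrays lay inside the Suv39h1- range. The other probe set of Cdkn1a gave 0.125. Cdkn2a, the p16 and p19Arf locus, did not pass (-1.09 ± 0.77, adjusted p = 0.355). Its values ran from 3.33 to 7.49 in WT and were 4.74, 5.08, 5.77, 2.44 and 9.63 in Suv39h1-, where 4936 was highest. Cdkn2b, which encodes p15, did not pass either (-0.32 ± 0.80, adjusted p = 0.825), with 10.50 in Suv39h1- 1032 and 4.63 to 5.79 in the other 4. The senescence-associated β-galactosidase gene Glb1 differed by 0.08 ± 0.20 (95% interval -0.33 to 0.50). Of the list of cell cycle inhibitors and arrest genes, 2 of 31 were higher and 5 lower in WT. The higher share was near the background (6.3%), and without Suv39h1- 9250 or 4936 none was higher.

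p53 targets were higher in 7 of 35 members (background 6.3% higher) and lower in none, with a median of 0.29. Mdm2, the ubiquitin ligase that p53 induces and that degrades it, was at 9.79 to 11.56 in WT (median 10.26) and 10.05, 8.70, 8.62, 10.26 and 8.68 in Suv39h1- (1.07 ± 0.29, adjusted p = 0.0224). Suv39h1- 5783 and 1032 lay within the WT range and the other 3 below it. Phlda3, an inhibitor of Akt, was higher by 1.2 ± 0.29 with 10 WT arrays above all Suv39h1- arrays. Sulf2 was higher by 0.93 ± 0.23, and it was already higher in native WT cells (1.22, adjusted p = 1.74e-05). Without Suv39h1- 7890, 9250 or 4936, 2 p53 targets passed. With the fibroblast marker list as a covariate 2 were higher and 1 lower, and with alike lymphomas counted once 1 was higher.

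NF-kB genes had the highest share of higher calls. Of 18 members 9 were higher in WT and none lower (background 6.3% higher), all 18 had a difference above 0, and the median was 0.72. The list mean was 8.05 (403) to 8.74 (9584) in WT and 7.81, 7.62, 6.99, 8.27 and 7.65 in Suv39h1-, and 11 WT arrays lay above all of these. Relb, a subunit of the alternative pathway, was at 5.63 to 7.01 in WT (median 6.64) and 5.55, 4.38, 4.35, 5.15 and 6.40 in Suv39h1- (1.29 ± 0.27, adjusted p = 0.00618). Only Suv39h1- 4936 lay within the WT range. Nfkbib, an inhibitor of NF-kB, differed by 0.69 ± 0.12 with all WT arrays above, although 1 of its 2 probe sets gave -0.11. Traf1, an adaptor of TNF receptors, was higher by 1.37 ± 0.33. Without Suv39h1- 9250, 3 NF-kB genes passed, and without 4936, 5.

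Genes of the senescence secretory programme were higher in 5 of 55 members and lower in none, a share close to the background, although 51 of 55 had a difference above 0 (median 0.72). Il10 was at 6.77 to 8.77 in WT (median 7.75) and 4.43, 5.21, 5.17, 9.17 and 5.43 in Suv39h1- (1.93 ± 0.50, adjusted p = 0.0183). Tnf was at 6.98 to 8.87 (median 8.17) against 6.24, 6.04, 6.02, 9.03 and 5.05 (1.53 ± 0.42, adjusted p = 0.0250). For both cytokines Suv39h1- 1032 was above every WT array and the other 4 Suv39h1- arrays below every WT array. Without 1032, 17 secretory genes passed as higher, at a median of 1.02. Without 5783, 7890, 9250 or 4936, 3, 2, 1 or 2 passed. Markers of other cell types also differed in level between the arrays. The fibroblast list mean was 5.03 (1467) to 9.17 (403) in WT against 6.40, 4.75, 4.66, 5.56 and 4.70, and the macrophage list mean 6.25 to 8.21 against 7.22, 7.82, 4.79, 7.76 and 4.70. All 33 fibroblast markers and 26 of 28 macrophage markers had a difference above 0 (medians 1.45 and 1.02), and 2 and 1 passed, Col1a1, Col6a1 and Ms4a7. Neither share of calls was above the background (6.3% higher). Fibroblast calls were 6 without Suv39h1- 5783, 5 without 1032 and 0 without 7890, 9250 or 4936, and macrophage calls were 2 without 7890 and 9 without 1032. The array highest for both cytokines, Suv39h1- 1032, had a fibroblast mean of 5.56 and a macrophage mean of 7.76. Its native array was at 9.55 for Il10 and 8.78 for Tnf. The source of the cytokine signal was not tested. With the fibroblast list as a covariate, 1 secretory gene passed at a median of 0.07, and with the macrophage list 2 at a median of 0.30.

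Interferon-stimulated genes had 5 of 38 members higher (background 6.3% higher), none lower, 37 above 0 and a median of 0.90. Ifitm3, which restricts virus entry, was at 6.86 to 11.25 in WT (median 9.74) and 9.86, 7.49, 5.69, 8.78 and 4.55 in Suv39h1- (2.38 ± 0.71, adjusted p = 0.0338). Suv39h1- 9250 and 4936 were below all WT arrays. The RNA editing enzyme Adar was higher by 0.62 ± 0.19 and Oas3, a sensor of double-stranded RNA, by 1.29 ± 0.41. Without Suv39h1- 1032, 18 of the 38 passed, without 5783, 2, and without 7890, 9250 or 4936 none did. With the macrophage list, whose levels are given above, as a covariate no interferon-stimulated gene passed, at a median of 0.28. Ticam1, the adaptor of the RNA sensor Tlr3, was higher by 0.76 ± 0.12 (adjusted p = 0.000971) and Mavs, the adaptor of cytosolic RNA sensing, lower by -0.44 ± 0.13 (adjusted p = 0.0333).

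Lysosome and autophagy genes were higher in WT, in 8 of 38 and 8 of 26 members (background 6.3% higher). In neither list was a gene lower. The autophagy list mean separated the groups. WT arrays ran from 8.07 to 8.50 and Suv39h1- arrays were at 8.05, 7.87, 7.71, 7.69 and 7.87. Sqstm1, the cargo receptor p62, was at 10.36 to 12.25 in WT (median 11.41) and 9.73, 9.56, 8.53, 10.21 and 9.82 in Suv39h1-. No array overlapped (1.82 ± 0.27, 3.54-fold, adjusted p = 0.000463). The other probe set of Sqstm1 gave 0.27. Map1lc3b, the LC3 protein of the autophagosome membrane, also did not overlap but differed by 0.46 ± 0.08. The receptor Calcoco1 was higher by 1.21 ± 0.20, while its other probe set gave -0.18. The lysosomal protease gene Ctsd was at 10.02 to 12.49 in WT (median 11.51) and 10.38, 10.70, 8.72, 11.30 and 8.60 in Suv39h1- (1.58 ± 0.43, adjusted p = 0.0236). For Ctsd 9 WT arrays lay above all Suv39h1- arrays. The sulfatase Ids (0.69 ± 0.17) and the proton pump subunit Atp6v0d1 (0.77 ± 0.22) were also higher. Without 1032, 14 lysosome genes passed, without 7890, 2, without 4936, 1, and without 9250 none. With the fibroblast or macrophage list as a covariate none or 2 passed, at medians of 0.23 and 0.25. For autophagy, 5 passed without 7890 and 4 without 9250. With the fibroblast list as a covariate 3 autophagy genes passed, at a median of 0.27, and with alike lymphomas counted once 4. The WT arrays with the highest autophagy means, 5560 and 403 (8.50 and 8.49), had the highest fibroblast means of the WT arrays (8.53 and 9.17). Other arrays did not keep this order, as WT 1570 was at 8.32 with a fibroblast mean of 5.465, and WT 7050 at 8.085 with 6.52. A link between these lists was not tested.

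The stress list, 27 genes that answer misfolded proteins or blocked translation, had members in both directions. Of these 5 were higher and 1 lower in WT (background 6.3% each). The transcription factor Atf3 was at 8.03 to 10.62 in WT (median 10.07) and 8.07, 8.80, 6.64, 9.74 and 7.16 in Suv39h1- (1.74 ± 0.43, adjusted p = 0.0142). Its range in WT held 3 of the Suv39h1- arrays. Ppp1r15a, which ends the stress block of translation, was higher by 1.19 ± 0.25 and the chaperone Calr by 0.61 ± 0.13, the latter without overlap. Without Suv39h1- 1032, 9 were higher, without 9250, 3, and without 4936, 2.

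**Figure D3:**
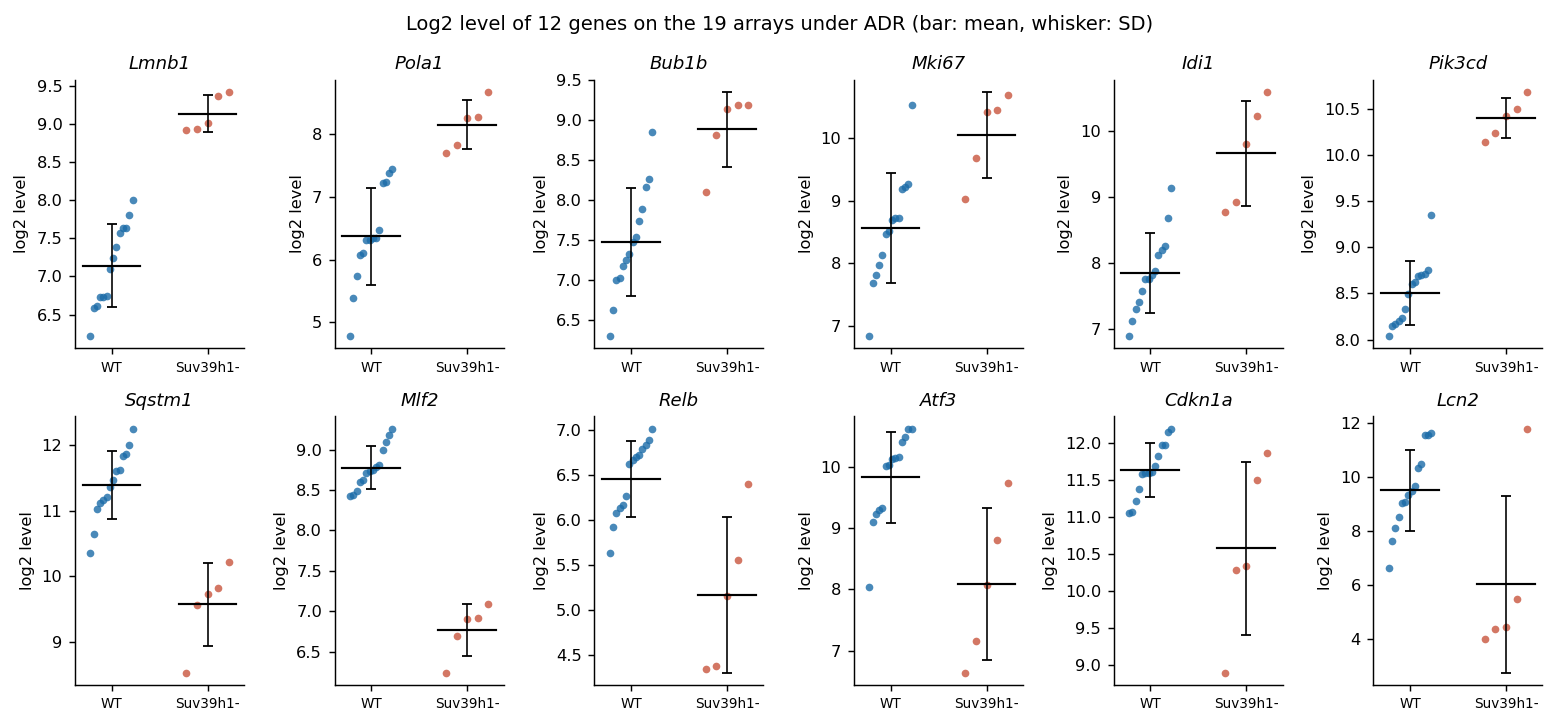
Log2 level (vertical axes) of 12 genes on the 14 WT and 5 Suv39h1- arrays under ADR, with mean and SD. Lmnb1, Pola1, Pik3cd, Sqstm1 and Mlf2 do not overlap between genotypes, and Lcn2 in Suv39h1- 1032 (11.78) lies above all WT arrays.

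Metabolic genes differed in both directions. Cholesterol synthesis genes were lower in 12 of 25 members (background 6.3% lower) and higher in none. Of the 25, 24 lay below 0, at a median of -0.66. Idi1, an isomerase of the mevalonate pathway, was at 6.90 to 9.14 in WT (median 7.79) and 8.93, 9.81, 10.60, 8.78 and 10.23 in Suv39h1- (-1.82 ± 0.32, adjusted p = 0.00179). WT 1467 alone lay inside the Suv39h1- range, and it was also the WT array inside that range for the sterol carrier Stard4 (-1.77 ± 0.29). Lss, which closes the sterol rings, differed by -0.66 ± 0.15. Without Suv39h1- 4936, 9250 or 7890, 6, 5 or 7 genes passed.

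Genes of oxidative phosphorylation were lower in 10 of 28 members (background 6.3% lower) and higher in none, with a small median of -0.26. Atp5c1, a subunit of ATP synthase, did not overlap (11.22 to 11.62, median 11.45, against 11.66, 11.78, 11.86, 11.70 and 11.84; -0.35 ± 0.07). The complex III subunits Uqcrfs1 and Uqcrc2 differed by -0.43 ± 0.11 and -0.59 ± 0.15. Without Suv39h1- 7890, 9250 or 4936, 2, 2 or 4 genes passed, and with quantile normalization 5. In glycolysis, 4 of 21 genes were higher and 1 lower (background 6.3% each). The higher ones included Pkm, pyruvate kinase (1.22 ± 0.19), and Pfkl, a phosphofructokinase (1.24 ± 0.24), both of which were also higher in native WT cells (0.97 and 1.33). The higher count was 2 without Suv39h1- 9250 and with alike lymphomas counted once. Slc16a1, the lactate transporter Mct1, was lower without overlap (-0.97 ± 0.14, adjusted p = 0.000401).

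Of 42 Myc target and ribosome biogenesis genes, 13 were lower (background 6.3% lower) and none higher, with a median of -0.60. Dkc1, the pseudouridine synthase of small nucleolar and telomerase RNA, differed by -1.35 ± 0.34, the purine synthesis gene Ppat by -0.95 ± 0.21 and the mitochondrial chaperone gene Hspd1 by -0.53 ± 0.12. Myc itself ran from 8.86 to 11.77 in WT (median 10.61) and was at 11.55, 11.70, 12.42, 10.42 and 11.68 in Suv39h1-. Its difference did not pass (-1.04 ± 0.38, adjusted p = 0.0737). Without Suv39h1- 7890, 9250 or 4936, 3, 2 or 5 genes of the list passed.

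The H3K9 methylation and heterochromatin list holds the partners and relatives of Suv39h1. Of its 40 genes 8 were lower and 2 higher in WT (background 6.3% each, list median -0.27). Ehmt2, the enzyme G9a that places mono- and dimethylation on the same residue, was higher in WT without overlap (9.17 to 9.70, median 9.40, against 8.89, 8.67, 9.07, 8.62 and 8.23; 0.73 ± 0.11, adjusted p = 0.000382). It was also higher in native WT cells (0.88, adjusted p = 0.000116). Suv39h2, the closest relative of Suv39h1, was at 5.11 to 5.98 in WT (median 5.57) and 5.97, 6.79, 6.94, 4.96 and 6.89 in Suv39h1- (-0.78 ± 0.23, adjusted p = 0.0356). Suv39h1- 1032 lay below all WT arrays 5783 at the top of the WT range and the other 3 above it. The DNA methyltransferase Dnmt3b (-1.06 ± 0.23) and the origin and heterochromatin protein Lrwd1 (-0.58 ± 0.12) were lower. Outside this list, the histone chaperone Hira, which deposits variant H3.3, was lower without overlap (5.78 to 7.07, median 6.51, against 7.82, 7.51, 8.29, 7.16 and 8.19; -1.24 ± 0.19). Of its 4 probe sets 2 had this sign. Hira also passed as lower in native WT cells (-0.80). For the heterochromatin list, 3, 2, 5 and 15 genes were lower without Suv39h1- 7890, 9250, 4936 and 1032. With the fibroblast list as a covariate none was lower and 2 were higher, at a median of -0.21. In the polycomb list 3 of 27 were higher and 2 lower (background 6.3% each). The lower ones were Suz12 and Pcgf6 (-0.62 ± 0.16 and -0.86 ± 0.22), and the higher ones included Phf1 (0.57 ± 0.17). Without Suv39h1- 7890, 1032 or 4936 no polycomb gene was higher, and without 4936 none was lower.

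Wnt pathway and stem cell genes were higher in 3 of 40 members, a share near the background. These were Lrp6, a Wnt co-receptor (0.44 ± 0.10), Tcf7l1 (0.39 ± 0.10) and Bmp4 (0.39 ± 0.11). Bmp4 lay at 2.75 to 3.53 in WT and 2.47 to 2.98 in Suv39h1-, below the median of every array. Class I antigen presentation genes were higher in 5 of 16 (background 6.3% higher), among them H2-K1 (1.06 ± 0.27). The immunoproteasome subunit Psmb10 was lower (-0.57 ± 0.14). Without Suv39h1- 9250 or 4936, 1 class I gene was higher. Of class II genes 1 of 17 passed, a share near the background. This was the regulator Rfxank (0.45 ± 0.13), whose call was lost without Suv39h1- 7890, 9250 or 4936. B cell identity genes had 2 of 22 higher, a share near the background, the tetraspanin Cd37 (1.25 ± 0.27) and the kinase Syk (0.99 ± 0.25). The other probe set of Cd37 gave -0.24. Cd37 also passed as higher in native WT cells (1.53). No precursor B cell, plasma cell, T cell, NK cell or erythroid marker passed in either direction. Of 12 neutrophil markers 2 were higher (background 6.3% higher), the receptor Cxcr2 (0.25 ± 0.07) and Lcn2. Cxcr2 lay at 2.95 to 3.41 in WT and 2.93 to 3.04 in Suv39h1-, below the median of every array. Of 13 endothelium markers 1 was higher, Pecam1 (1.36 ± 0.36), a share near the background. Pecam1 also passed as higher in native WT cells (1.18). No neutrophil marker passed without any one of Suv39h1- 5783, 7890, 9250 or 4936, and no endothelium marker without 7890, 9250 or 4936.

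Bcl2, which was delivered to all lymphomas, was at 9.18 to 11.46 in WT (median 10.29) and 9.42, 9.60, 9.82, 8.20 and 7.11 in Suv39h1- (1.46 ± 0.41, adjusted p = 0.0256), and it differed by 2.18 in native cells (adjusted p = 0.000103). Suv39h1- 4936 and 1032 were below every WT array. Under ADR its call was lost without Suv39h1- 4936 and with alike lymphomas counted once. Bcl2l1, the related survival gene, was higher in WT by 1.01 ± 0.27, a call lost without 4936 or 9250 and with alike lymphomas counted once. Bcl2l11, the death-promoting Bim, did not pass (0.69 ± 0.25, adjusted p = 0.0756).

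The 12 genes with the largest difference among those higher in WT without overlap were led by Anxa6, a membrane-binding annexin, at 7.67 to 8.77 in WT (median 8.23) against 6.22, 5.85, 5.03, 6.70 and 6.23. The difference was 2.28 ± 0.20 (4.85-fold, adjusted p = 1.39e-06), and all 4 of its probe sets were higher in WT, by 0.28 to 2.50. Lgals9, the secreted lectin galectin-9, was at 8.57 to 10.30 (median 9.33) against 7.41, 7.15, 7.38, 7.73 and 5.99 (2.22 ± 0.24). Mlf2 was at 8.42 to 9.26 (median 8.74) against 6.69, 6.91, 6.90, 6.24 and 7.09 (2.01 ± 0.14, adjusted p = 1.27e-07). Tgfb1, the cytokine TGF-β1, was at 7.69 to 8.99 (median 8.30) against 5.91, 6.12, 6.41, 7.05 and 6.31 (1.98 ± 0.21), although its other probe set gave -0.10. These 4 also passed as higher in native WT cells, by 1.10, 2.03, 1.55 and 1.64. So did Tle5 (1.60) and Plekho2 (0.72) of the genes named next. The rest of the 12 were Sqstm1, Plekho2, the GTPase gene Rhob, the sialyltransferase gene St3gal2, the corepressor gene Tle5, the actin crosslinker gene Flna, the lysosomal exonuclease gene Pld3 and the methionine sulfoxide reductase gene Msrb1, at 1.43 to 1.82.

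Among the 12 lower genes, Pik3cd, the p110δ catalytic subunit of PI3 kinase that signals in B cells, was at 8.04 to 9.35 in WT (median 8.55) and 10.50, 10.68, 10.42, 10.24 and 10.14 in Suv39h1-. The difference was -1.89 ± 0.16 (adjusted p = 9.16e-07) and was as large in native cells (-1.96). Its 6 probe sets disagreed, with 3 below 0 and a range of -1.89 to 0.83. The nucleoporin gene Nup37 (-1.14 ± 0.14) and the Mediator subunit gene Med14 (-1.06 ± 0.14) were lower without overlap, as was Bzw2 (-1.26 ± 0.21), of whose 3 probe sets 1 gave 0.58. Med14, Ids, Map1lc3b, Pfkl and Pcgf6 each also had 1 probe set of the opposite sign. For some genes another probe set gave a much smaller difference of the same sign. Examples are Kif18a (-0.10), Nek2 (-0.02), Chek1 (-0.009), Mavs (-0.006) and Bcl2 (0.16).

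**Figure D4:**
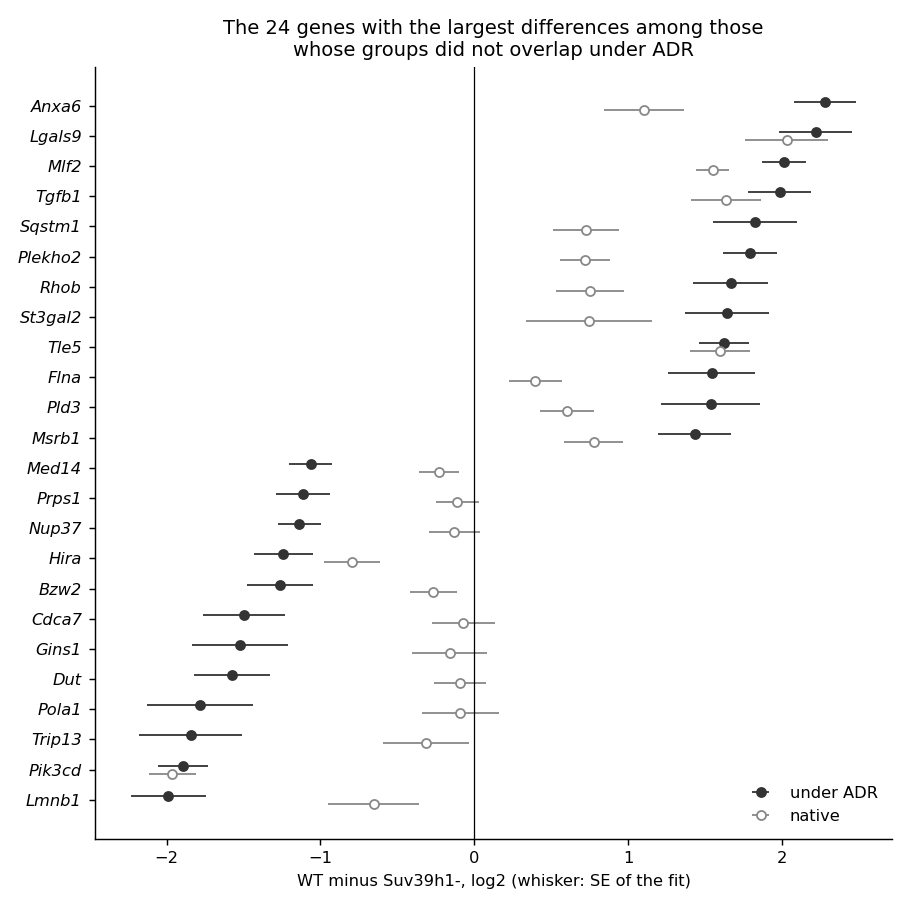
WT minus Suv39h1- difference in log2 (horizontal axis, whiskers are the SE of the fit) for the 12 higher and 12 lower genes of largest difference among those without overlap under ADR. Filled points are ADR and open points native arrays, and Pik3cd, Lgals9 and Tle5 show nearly the same difference in both, whereas Pola1 and Dut lie near 0 in native cells.

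Many calls rested on few lymphomas. With the fibroblast list as a covariate, 5 replication, 5 mitosis, 1 repair, 2 cholesterol synthesis, 1 oxidative phosphorylation and 1 Myc target gene were lower, and 1 NF-kB and 1 class I gene were higher. With the macrophage list these counts were 13, 26, 6, 4, 2 and 2 lower, and 3 and 1 higher. With alike lymphomas counted once they were 10, 8, 3, 2, 2 and 3 lower, and 3 and 1 higher. Of the single genes named above, the calls of Mdm2, Il10, Tnf, Ifitm3, Adar, Oas3, Atp6v0d1, Phf1, Rfxank, Col1a1, Col6a1, Cxcr2, Lcn2, Pecam1, Cdkn1a, Mki67 and Suv39h2 were each lost without Suv39h1- 7890, without 9250 and without 4936. Mavs, Ids and Uqcrc2 were lost without 7890 or 9250, and Ctsd, Atf3, Suz12 and H2-K1 without 9250 or 4936. Uqcrfs1, Dkc1 and Tcf7l1 were lost without 9250, Pcgf6 and Syk without 4936, and Bmp4 without 7890, 5783 or 1032. Without 5783, the calls of Il10, Tnf, Adar, Oas3, Mavs, Col1a1, Cxcr2 and Lcn2 were lost too, and without 1032 those of Phf1 and Col6a1. Among WT arrays, leaving out 3769 ended the calls of Adar, Oas3, Phf1, Col6a1 and Suv39h2, and leaving out 5560 that of Cdkn1a. Oas3 was also lost without WT 1467, 2581, 5043, 5560, 5766, 7050 or 9584, and Col6a1 without 2581, 3594 or 5766.

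The untreated cells of the same lymphomas show which differences were there before ADR. In native cells 198 genes passed (1.09%), 173 higher (0.951%) and 25 lower (0.137%) in WT. Of these 140 also passed under ADR, all in the same direction (129 higher, 11 lower), which is 70.7% of the native calls and 6.11% of the ADR calls. No replication, mitosis, DNA repair, oxidative phosphorylation or cholesterol synthesis gene passed in native cells. The native medians of these lists were 0.05, 0.09, -0.02, -0.01 and -0.19, against -0.02 over all genes. The native replication list mean was 8.39 to 9.45 in WT and 8.16 to 9.42 in Suv39h1-. From native to ADR the replication and mitosis means rose in Suv39h1- 4936 (8.16 to 8.99 and 8.25 to 9.02). They changed little in WT 9584 (8.610 to 8.606 and 8.77 to 8.62) and fell in all other lymphomas of both genotypes. Over the genes called under ADR, the native median was 0.20 for those higher in WT and -0.13 for those lower, beside 0.60 and -0.63 under ADR. Without Suv39h1- 1032, 316 native genes passed, and with the 18S signal as a covariate 5.

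**Figure D5:**
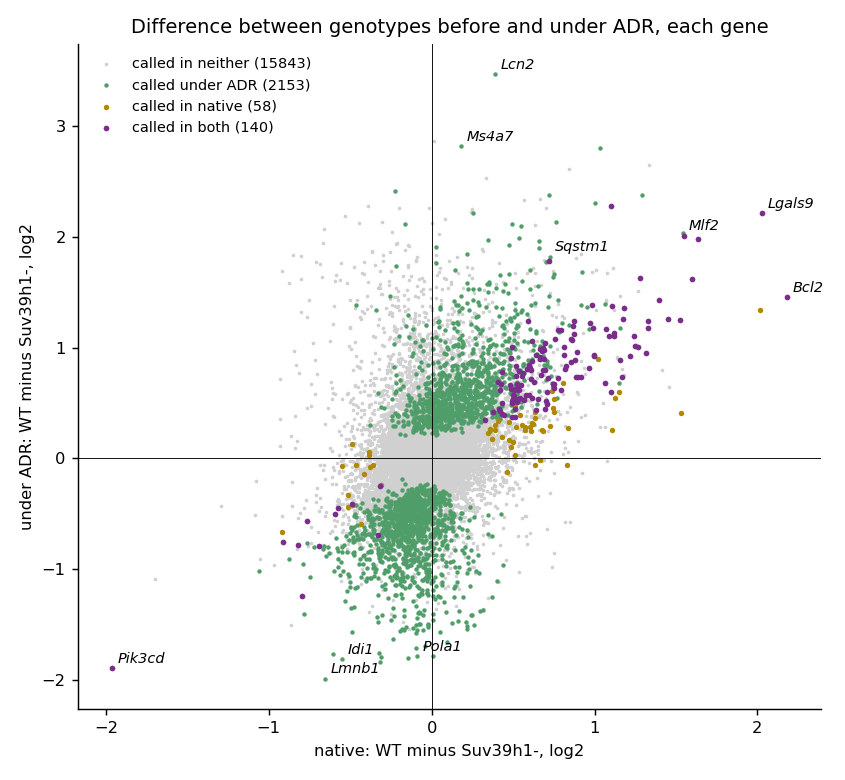
WT minus Suv39h1- difference in log2 of each of 18194 genes in native cells (horizontal axis) and under ADR (vertical axis), coloured by where the gene passed the test. The 140 genes called in both have the same sign on both axes. Some have nearly the same size (Pik3cd -1.96 and -1.89, Lgals9 2.03 and 2.22) and some not (Anxa6 1.10 and 2.28). Pola1 lies low near the vertical axis (-0.09 in native cells). Lmnb1 (-0.66 in native cells) and Idi1 (-0.55) lie low to the left of it.

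The response to ADR was then compared directly, as ADR minus native within each lymphoma, WT against Suv39h1-. Of 18194 genes 40 passed (0.22%), 23 with a higher and 17 with a lower response in WT, and 33 of these had also passed under ADR. Bub1b responded more negatively in WT (-1.66, adjusted p = 0.0490), as did Plk1 (-1.62, adjusted p = 0.0490), Pold2, a subunit of a replicative polymerase (-1.18), and Prps1 (-1.0). More positive were Lcn2 (3.08, adjusted p = 0.0391), Atf3 (1.96), Tnf (1.27), Plekho2 (1.07) and Rela, the main NF-kB subunit (0.57). Plk1, Pold2 and Rela were chosen after their values were seen. The median response difference was -0.96 for replication and -1.32 for mitosis genes, against 0.05 over all genes. The count ranged from 0 to 132 when single lymphomas were left out, it was 0 without any one of Suv39h1- 7890, 9250, 1032 or 4936 or of WT 1570, 3594, 5560, 5766 or 7050, it was highest without WT 9584, and 2 genes passed in the unpaired fit without the replicate block.

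The 3 Suv39h1ER cultures give other arrays in which Suv39h1 activity differs under ADR, with 4OHT against without. No gene passed by limma (0 of 18194, with 1938 at an unadjusted p under 0.05), and with 3 cultures the values are a description. The numbers 4936 and 5043 of these cultures also occur among the Suv39h1- and WT lymphomas. Mitosis genes had a median of -0.75 and replication genes of -0.66, against -0.02 over all genes. The mitosis list mean was 8.74, 8.66 and 8.70 without and 8.66, 8.0 and 7.32 with 4OHT, in the same order of cultures. By the labelled pairs it was lower with 4OHT in all 3, by very different amounts. Deviations of same-numbered arrays from their group means correlated at -0.271 to 0.255 over all genes, against a median of 0.176 for different numbers. Xist was at 9.06, 11.50 and 6.18 without and 6.11, 6.27 and 6.19 with 4OHT. Cdkn2a in 4936 was at 11.76 and 5.57. The pairing of these cultures, and every 4OHT difference given here, therefore rests on the labels. Of the genes higher in WT under ADR 67.2% had a positive 4OHT difference (46.3% of all genes), and of those lower in WT 85.5% had a negative one (53.7% of all). Lmnb1 had a difference of -0.75, Sqstm1 of 0.81 and Cdkn1a of 0.89. Cholesterol synthesis genes went the other way, with a median of 0.48, and their list mean was 7.81, 7.91 and 8.14 without and 8.14, 8.32 and 8.54 with 4OHT. Pik3cd (0.28) and Tgfb1 (-0.31) had the opposite sign to the genotype difference, and Mlf2 (0.04) and Tle5 (-0.02) were near 0. The fibroblast marker median was -0.53 and that of secretory genes -0.01.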

How the data were processed

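Per the submitters' processing notes, the authors used RMA, oligo and R 3.5.0 for the deposited log2 expression values of each probe set; a batch correction is not stated there. The table holds 45101 probe sets on 47 arrays. In GEO's annotation 34958 had a single symbol, 932 had several and 9211 were unnamed here, with 34754 brought up to date by Entrez number. A gene was represented by its brightest probe set on average, without a filter on dim genes, and detection calls were not used. Groups were compared with limma 3.58.1 (lmFit, eBayes; R 4.3.3), two-sided, with Benjamini-Hochberg adjustment over 18194 genes; the fits were tested on simulated data. The ADR response used differences within lymphoma, paired by the lymphoma number in the labels, and the Suv39h1ER comparison was blocked on it. Over all genes, deviations from the group means of same-numbered arrays correlated at -0.229 to 0.56 (median 0.231) in WT, 0.46 to 0.729 in Suv39h1- and -0.271 to 0.255 in the 3 Suv39h1ER cultures, so the pairing rests on the labels and was not borne out for every pair. Control signals were compared by exact permutation. Fold means 2 to the power of the difference.

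Genes were named by rule: the 12 higher and 12 lower genes with the largest difference among called genes without overlap, the 3 of each of 34 lists with the smallest p, and 12 set genes; not all are printed. The 34 lists hold 921 entries, 843 of them measured. Members, lists and rules were chosen with earlier results of these data known. Lists are described by counts and medians, with no set test. Alternatives covered probe set choice, weighting, normalization, covariates, leaving out lymphomas and averaging lymphomas that resemble each other (to 11 WT and 4 Suv39h1-). The covariates Actb and 18S were added after seeing the data.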

Additional observations from a re-analysis of the deposited data

Results flagged for a closer look

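Single arrays stood far from the other 4 Suv39h1- arrays under ADR in 10 of 133 sets of values examined. That share is not far above the 1 in 20 or so that chance alone gives. The sets are not independent, as Lcn2 also enters the neutrophil marker mean. Suv39h1- 1032 was far above the rest for Lcn2 (11.78, others 4.00 to 5.49), Il10 (9.17, others 4.43 to 5.43), Cdkn2b (10.50, others 4.63 to 5.79) and the neutrophil marker mean (5.80, others 3.71 to 4.20). It was far below for Sulf2 (5.90, others 7.41 to 7.80), the polycomb-associated gene Phf1 (4.55, others 5.48 to 5.79) and the array median (4.07, others 4.32 to 4.36). Suv39h1- 5783 stood apart in Pfkl (6.78, others 7.64 to 7.94) and in the precursor B cell mean (7.51, others 6.12 to 6.40), and 4936 in Med14 (9.21, others 8.46 to 8.64). The response to ADR differed between the genotypes for 6 of the genes named by rule: Lcn2 (3.08), Atf3 (1.96), Tnf (1.27), Plekho2 (1.07), Prps1 (-1.0) and Bub1b (-1.66).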

How the results depend on the processing

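The number of genes called under ADR, 2293, was within 1.5 times of that value with the mean of all probe sets, every probe set, a dim-gene filter, array weights, a trended robust prior, quantile normalization and Xist as a covariate (2081 to 3310). It was 939 with the alike lymphomas counted once, 706 and 1268 with the fibroblast or macrophage list as a covariate, 3527 when all 47 arrays shared the spread, 562 with the Actb difference and 39 with the 18S signal as a covariate, and 1227 to 3389 without single lymphomas. Of the 2293 genes, 1677 kept their call with the mean of all probe sets (14 changed sign), 923 with alike lymphomas counted once, 497 with Actb and 36 with 18S (20 changed sign). Native calls, 198, were 794 over every probe set, 109 with array weights, 5 with 18S and 138 to 316 without single lymphomas. Response calls, 40, were 0 with the mean of all probe sets, with every probe set, with a trended prior and with alike lymphomas counted once, 4 with array weights, 25 with quantile normalization, 2 without the replicate block and 0 to 132 without single lymphomas. The Suv39h1ER count was 0 in each alternative run, with and without the replicate block. Single genes changed sign as follows. Pik3cd was 0.002 with the mean of all probe sets, Col6a1 -0.028 with 18S, Cdkn2b 0.25 with array weights and -0.724 to 0.743 without single lymphomas, Xist -0.295 with alike lymphomas counted once and -0.06 to 1.808 without single lymphomas, and Glb1 -0.029, -0.003, -0.004 and -0.089 with the fibroblast, macrophage, Actb and 18S covariates. The cause was not tested. Over 200 probe sets selected for agreement between the native and ADR arrays of a lymphoma, which favours high values, the 4 alike WT arrays correlated at 0.47 to 0.82 and the 2 alike Suv39h1- arrays at 0.40, but another pair reached 0.79.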
